A study of Macaca mulatta with 12 samples.

Results

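LLGL1, CEP89 and TMEM106B are 3 genes read here in the dorsal raphe, a midbrain nucleus rich in serotonin neurons. In at least 1 probe set of each, signal was lower in monkeys given estrogen than in monkeys given placebo. It was higher again in monkeys given estrogen together with progesterone. The brightest probe sets of LLGL1 and TMEM106B were not higher under the combination than under estrogen. The 3 genes were selected on exactly these differences, among 14132 genes named on an Affymetrix rhesus array. Every probe set that carried 1 of the 3 names was taken: 4 for LLGL1, 5 for CEP89 and 3 for TMEM106B, which makes 12 of 52766. Of these, 9 were bright enough to be tested (all 4 of LLGL1, 2 of CEP89 and all 3 of TMEM106B), among 26383 tested in all. The selection set no numerical limit. The estrogen and combined-treatment values below are therefore a description. The comparison of progesterone alone with placebo was not used in the choice. The progesterone arrays still entered the normalization, the brightness limit and the estimate of spread. The selection named no probe set. Below, the choosing probe set of a gene is its tested probe set with the lowest unadjusted p for estrogen against placebo. That of TMEM106B reached the brightness limit only through the progesterone arrays.

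RNA came from 12 female rhesus monkeys, 1 array per animal and 3 animals per group. Steroids were given for 1 month in Silastic capsules placed under the skin. The placebo group is coded OVX in the labels, read here as ovariectomized animals. The estrogen group received estrogen, the combined group received estrogen and progesterone, and the progesterone group received progesterone. The code OVX stands only with the placebo arrays, and the labels of the hormone groups do not speak of ovariectomy. The labels give no ages or doses. The progesterone arrays are coded EP in their titles and P in their descriptions, and were taken as progesterone alone.

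The 3 genes belong to unrelated machineries. LLGL1 is a mammalian form of the fly tumour suppressor lethal giant larvae. With Scribble and the Dlg proteins it marks the basolateral side of polarized cells, and the atypical protein kinase C of the opposing Par complex phosphorylates it and drives it off the membrane. CEP89 sits in the distal appendages, the spokes by which the older centriole of a pair docks to the membrane before a primary cilium grows. TMEM106B spans the membrane of late endosomes and lysosomes, and in people its gene is known for its link to frontotemporal dementia and to progranulin, another lysosomal protein. Estrogen and progesterone act largely through nuclear receptors that switch genes on or off, and in many tissues estrogen raises the progesterone receptor.

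All values below are log2 intensity after quantile normalization unless they are called deposited intensity, and arrays are given in the order 1, 2, 3 of the labels. Median deposited intensity per array lay between 71.1 and 98.6, and no pair of arrays was identical. On the first principal component (23.5% of the variance), array 1 of placebo, of estrogen and of the combination stood apart from the other 9 arrays. On the second component (17.2%), progesterone arrays 2 and 3 stood apart, at -46.3 and -54.5. Progesterone array 1 lay at -14.1, and the arrays of the other groups lay between 0.50 and 20.4. The serotonin neuron genes FEV, a transcription factor, and SLC18A2, the vesicular monoamine transporter, lay at the 91.8th and 95.5th percentile of all probe sets. TPH2, the enzyme of brain serotonin synthesis, lay at the 67.0th, between 4.66 and 8.85 across arrays. SLC6A4, the serotonin transporter, had no named probe set. The tissue is a block of many cell types, so fewer cells of a type and less RNA per cell cannot be told apart in any value given here.

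The choosing probe set of LLGL1 was MmugDNA.7680.1.S1_at. Its deposited intensity was 595, 516 and 491 in the placebo arrays and 370, 287 and 311 in the estrogen arrays. It was 583, 465 and 665 in the combined arrays and 398, 362 and 389 in the progesterone arrays. On the log2 scale the placebo arrays lay between 8.92 and 9.20, and the others read 8.57, 8.17 and 8.27, then 9.25, 8.83 and 9.36, and then 8.61, 8.52 and 8.64. The estrogen arrays lay below all placebo and all combined arrays, but so did the progesterone arrays, and the ranges of estrogen and of progesterone alone overlapped. The label "low under estrogen alone" thus did not separate the 2 single-hormone groups in this probe set: LLGL1 was low in both and overlapped placebo when they were combined.

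Group means of that probe set were 8.34 ± 0.21 (SD, n = 3) under estrogen, 8.59 ± 0.06 under progesterone, 9.04 ± 0.14 under placebo and 9.15 ± 0.28 under the combination. Estrogen stood 0.70 below placebo (SE 0.17), a level 0.614 times that of placebo, and the combination stood 0.81 above estrogen, a level 1.75 times as high. Between progesterone and placebo, the next step in the order of means, the arrays did not overlap, and the means differed by 0.46. Between placebo and the combination the arrays overlapped, and the means differed by 0.10. Adding progesterone went with a lower signal in the absence of estrogen (-0.46) and a higher one in its presence (0.81), and these 2 differences were 1.26 apart (SE 0.25). The second of them was used in the selection, so the gap between them is given without a test.

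**Figure D1:**
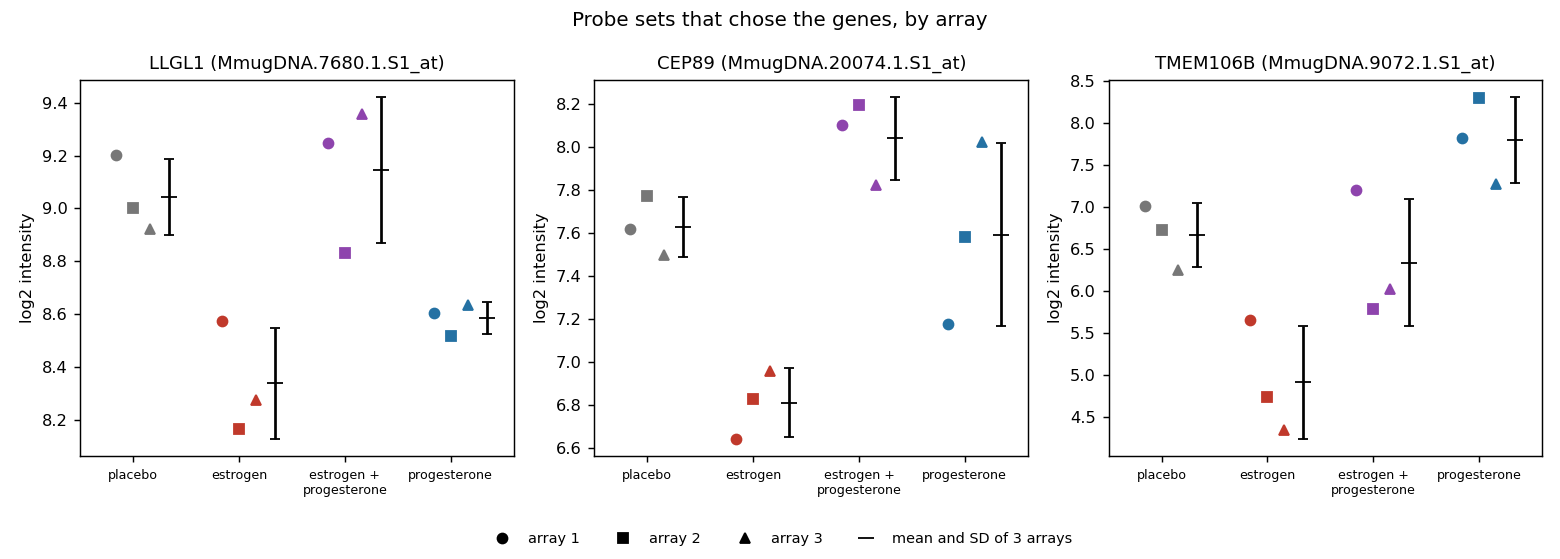
Log2 intensity of the choosing probe sets of LLGL1, CEP89 and TMEM106B, by array in the 4 treatment groups. Each is the tested probe set of its gene with the lowest unadjusted p for estrogen against placebo. Symbols are arrays 1 to 3 and the bar is the mean ± SD. LLGL1 is low under both single hormones, CEP89 is lowest in the 3 estrogen arrays (6.64 to 6.96), and TMEM106B is highest in the 3 progesterone arrays (7.28 to 8.30).

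The other LLGL1 probe sets differed in how far they shared this shape. MmugDNA.29172.1.S1_at read 8.80, 8.52 and 8.89 under placebo, 8.48, 8.49 and 8.33 under estrogen, 8.64, 8.63 and 9.05 under the combination, and 8.62, 8.63 and 8.46 under progesterone. Its estrogen arrays lay below all placebo and all combined arrays, though by a narrow margin, and the differences were -0.30 and 0.34 (SE 0.16). When the arrays were aligned on their medians in place of quantile normalization, neither separation held. MmugDNA.3783.1.S1_at read 7.48, 7.47 and 7.16 under placebo, 6.96, 7.20 and 7.09 under estrogen, 7.21, 7.46 and 7.69 under the combination, and 7.37, 7.38 and 7.43 under progesterone. Here estrogen overlapped placebo (-0.28, SE 0.16) and lay below the combination (0.37), a separation that was also lost on median alignment. In the deposited values, by contrast, its estrogen arrays (125 to 140) lay below all 9 others, of which the lowest was a placebo array at 140.5. Progesterone alone lay inside the placebo range, unlike in the first probe set.

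The brightest LLGL1 probe set, MmugDNA.23839.1.S1_at, at the 97.1th percentile of mean level, did not follow. It read 11.05, 10.66 and 10.62 under placebo, 10.50, 10.78 and 10.36 under estrogen, 10.89, 9.93 and 10.36 under the combination, and 10.63, 10.37 and 10.56 under progesterone. Every neighbouring pair of groups overlapped, and the lowest single value was in the combined group, where the selected shape has its high point. Its differences were -0.23 for estrogen against placebo and -0.15 for the combination against estrogen (SE 0.23). Centred on their own means over the 12 arrays, MmugDNA.29172.1.S1_at and MmugDNA.3783.1.S1_at were the most alike of the 4 (root mean square difference 0.19), the choosing probe set lay 0.26 and 0.31 from them, and the brightest lay 0.41 from the choosing one. The sources used here do not give which LLGL1 transcripts each probe set reads.

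The choosing probe set of CEP89 was MmugDNA.20074.1.S1_at. Its placebo arrays read 7.62, 7.77 and 7.50, its estrogen arrays 6.64, 6.83 and 6.96, its combined arrays 8.10, 8.19 and 7.82, and its progesterone arrays 7.18, 7.58 and 8.02. In deposited intensity the estrogen arrays read 110, 106 and 113, against 180 to 221 under placebo, 222 to 295 under the combination and 141 to 265 under progesterone. The estrogen arrays lay below all 9 other arrays, after quantile normalization, after median alignment and in the deposited values. Of the 3 genes, CEP89 in this probe set was the one that matched the label "low under estrogen alone" on each of these scales.

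The group means of this probe set were 6.81 ± 0.16 (SD, n = 3) under estrogen, 7.59 ± 0.42 under progesterone, 7.63 ± 0.14 under placebo and 8.04 ± 0.19 under the combination. Estrogen stood 0.82 below placebo (SE 0.21), a level 0.568 times that of placebo, and the combination stood 1.23 above estrogen, a level 2.34 times as high. Progesterone and placebo overlapped and differed by -0.03, while the 3 combined arrays all lay above the 3 placebo arrays, by 0.41 in the means. Progesterone made a difference of 1.23 in the presence of estrogen and of -0.03 in its absence, a gap of 1.26 (SE 0.30) that is again a description.

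The second tested CEP89 probe set, MmugDNA.6682.1.S1_s_at, bears a suffix that the array's maker gives to probe sets shared by several transcripts. It read 7.76, 7.77 and 7.51 under placebo, 7.49, 6.85 and 7.54 under estrogen, 8.20, 7.90 and 7.85 under the combination, and 6.90, 7.71 and 7.62 under progesterone. The combined arrays lay above every other array, whereas the estrogen arrays overlapped placebo and their low mean rested on array 2: estrogen minus placebo was -0.38 (SE 0.24), and -0.16 without that array. The combination stood 0.69 above estrogen, or 0.47 without that array. It resembled the choosing CEP89 probe set with a root mean square difference of 0.34.

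The 3 remaining CEP89 probe sets were too dim to test, at the 27.2th to 45.9th percentile of mean level. MmugDNA.25990.1.S1_at read 5.87, 5.88 and 6.32 under placebo, 5.75, 6.04 and 6.11 under estrogen, 6.21, 6.52 and 6.59 under the combination, and 5.77, 5.83 and 5.96 under progesterone. It was thus high in the combined group (0.47 above estrogen) without being low under estrogen (-0.06 from placebo). MmugDNA.6682.1.S1_at ranged from 3.47 to 5.98 and MmugDNA.1002.1.S1_at from 2.32 to 5.84. Both varied within groups by as much as between them, with an SD of 1.16 among the placebo arrays of the first and of 1.48 among the progesterone arrays of the second. What the brighter 3 of the 5 CEP89 probe sets shared was the position of the combined group above estrogen; the estrogen arrays lay below all placebo arrays in 1.

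**Figure D2:**
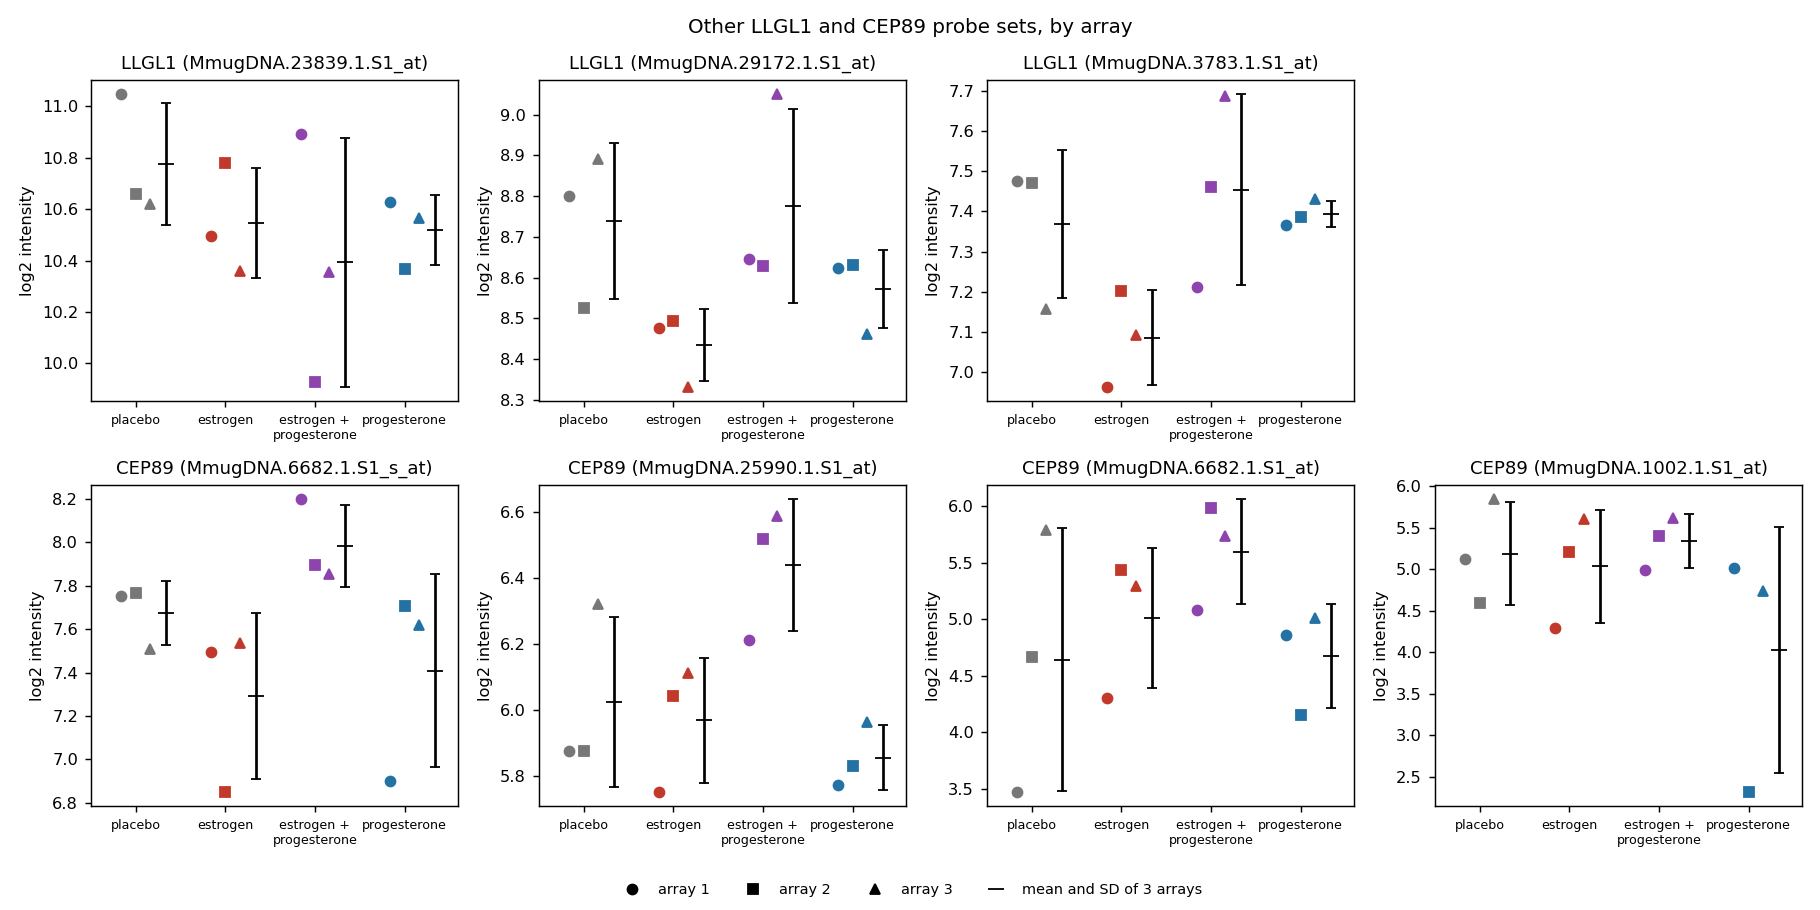
Log2 intensity by array of the 3 LLGL1 probe sets (top row) and 4 CEP89 probe sets (bottom row) other than the choosing ones. Symbols are arrays 1 to 3 of each group and the bar is the mean ± SD. Each panel has its own vertical scale. MmugDNA.6682.1.S1_s_at is highest in the 3 combined arrays (7.85 to 8.20), and the brightest LLGL1 probe set has its lowest array, at 9.93, in the combined group.

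The choosing probe set of TMEM106B was its dimmest, MmugDNA.9072.1.S1_at. In deposited intensity it read 128, 106 and 72.6 under placebo, 57.5, 24.0 and 16.5 under estrogen, 157, 51.9 and 61.9 under the combination, and 226, 310 and 169 under progesterone. On the log2 scale these were 7.01, 6.72 and 6.25, then 5.66, 4.74 and 4.34, then 7.20, 5.79 and 6.03, and then 7.82, 8.30 and 7.28. The progesterone arrays were the highest 3 of all 12, and the estrogen arrays the lowest 3. In the deposited values the first estrogen array (57.5) exceeded the second combined array (51.9), so that estrogen and the combination overlapped there.

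Means of this probe set were 4.91 ± 0.67 (SD, n = 3) under estrogen, 6.34 ± 0.75 under the combination, 6.66 ± 0.38 under placebo and 7.80 ± 0.51 under progesterone. Estrogen stood 1.75 below placebo (SE 0.42), a level 0.298 times that of placebo, and the combination stood 1.42 above estrogen, a level 2.68 times as high. Without the first combined array the latter was 0.996. The mean over all arrays, 6.43, was just above the limit for testing, 6.31, and all 3 estrogen arrays, 2 combined arrays and 1 placebo array lay below that limit. Unlike the choosing probe sets of LLGL1 and CEP89, this TMEM106B probe set had the same direction for each hormone whether or not the other was present. Estrogen went with a lower signal without progesterone (-1.75) and with it (-1.46), and progesterone with a higher signal without estrogen (1.14) and with it (1.42). The gap between these differences was 0.29 (SE 0.60). This contrast between the genes did not extend to their other probe sets. In the brightest LLGL1 probe set estrogen also had the same direction without progesterone (-0.23) and with it (-0.13). In the TMEM106B probe set whose identifier begins with Mmu and not MmugDNA the direction changed, from -0.30 to 0.47.

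The other TMEM106B probe sets had other shapes. The brightest, MmugDNA.9181.1.S1_at, read 8.58, 8.42 and 8.27 under placebo, 8.48, 8.02 and 8.22 under estrogen, 8.27, 7.95 and 8.37 under the combination, and 8.14, 7.72 and 8.79 under progesterone. All groups overlapped, and estrogen minus placebo (-0.18) and the combination minus estrogen (-0.04) were smaller than their SE of 0.25. The remaining probe set, the only member whose identifier begins with Mmu and not MmugDNA, read 7.38, 7.14 and 6.90 under placebo and 6.96, 6.72 and 6.85 under estrogen. Its combined arrays read 9.25, 6.62 and 9.26, and its progesterone arrays 7.53, 9.39 and 6.80. It was thus near 7 in 9 arrays and above 9 in 3 (deposited intensity 584, 622 and 667), 2 of the combined group and 1 of the progesterone group.

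That pattern gave the Mmu probe set a larger difference between the combination and estrogen (1.53, SE 0.70) than the choosing probe set had, with single arrays deciding its size: 2.41 without the second combined array and 1.09 without the third. Any 2 of the 3 TMEM106B probe sets differed by 1.08 to 1.17 (root mean square over the centred 12 arrays), as much as the choosing TMEM106B probe set differed from that of CEP89 (1.01) or LLGL1 (1.06). The choosing probe sets of LLGL1 and CEP89 lay 0.37 apart. This measure grows with the spread of each probe set. From their own means, the choosing probe sets of LLGL1, CEP89 and TMEM106B lay 0.36, 0.49 and 1.14. The distances between genes are therefore not read as likeness. The Mmu probe set stood 0.30 below placebo under estrogen, less than its SE of 0.70, and ran from -0.41 to -0.18 over the settings tried. That range shows little, because the settings share most arrays and the selection used this contrast. Its estrogen arrays overlapped placebo after quantile normalization and in the deposited values, and lay below placebo on median alignment. Of the 3 TMEM106B probe sets, 1 had estrogen below placebo on each of these scales.

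**Figure D3:**
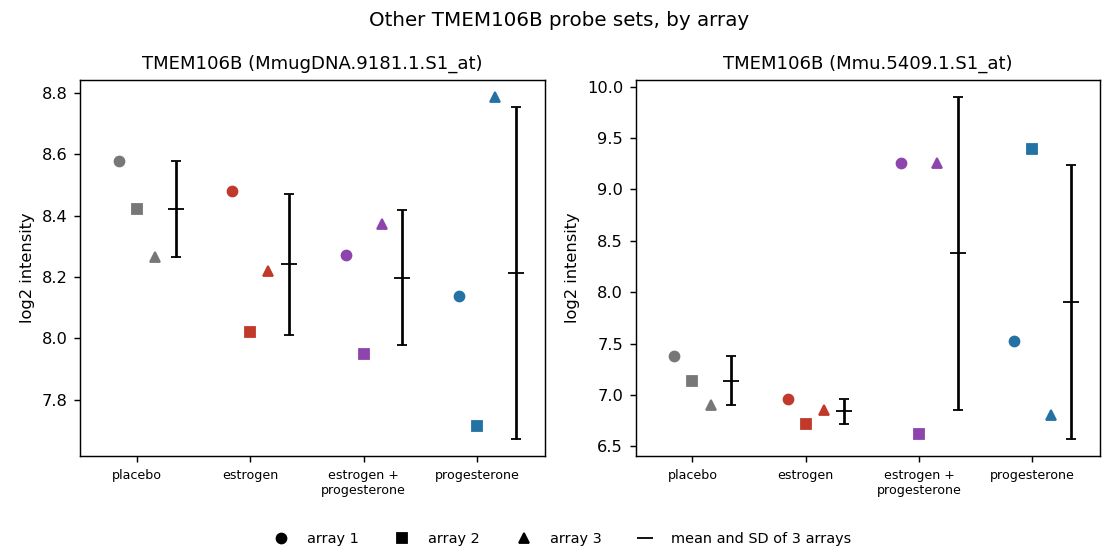
Log2 intensity by array of the 2 TMEM106B probe sets other than the choosing one. Symbols are arrays 1 to 3 of each group, the bar is the mean ± SD, and each panel has its own vertical scale. MmugDNA.9181.1.S1_at overlaps between all groups, and the Mmu probe set is above 9 in 2 combined arrays and 1 progesterone array.

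Counted over the 12 probe sets, the estrogen arrays lay below all placebo arrays in 4 (2 of LLGL1, 1 of CEP89 and 1 of TMEM106B, all among the 9 tested), beside 3.98% of all probe sets tested. The combined arrays lay above all estrogen arrays in 7, of which 6 were tested, beside 4.04%. Both held in 4, beside 0.876%, and estrogen lay below all 9 other arrays in 2, the choosing probe sets of CEP89 and TMEM106B, beside 0.280%. In the deposited values these 2 were CEP89 MmugDNA.20074.1.S1_at and LLGL1 MmugDNA.3783.1.S1_at, without TMEM106B. Estrogen lay below placebo in 4 on median alignment and in 5 in the deposited values, and the combination above estrogen in 5 and in 7. The selection used these contrasts, so nothing is read from the shares. No member was called by limma in either contrast, and neither was any other probe set: 0.00% were called for estrogen against placebo, where 699 had an unadjusted p under 0.05, and 0.00% for the combination against estrogen, where 786 did. Ranked by the size of the difference among the 26383 tested, the choosing probe sets of TMEM106B, CEP89 and LLGL1 were the 6th, 144th and 246th lowest for estrogen against placebo. For the combination against estrogen they were the 13th, 28th and 153rd highest. These ranks follow from the selection and from the way the choosing probe sets were picked, and support nothing. That of TMEM106B was ranked only because its progesterone arrays brought it over the brightness limit.

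Progesterone alone against placebo was the comparison that the selection had not used, although it shares the placebo arrays with it. TMEM106B, in its choosing probe set, was 1.14 higher under progesterone (SE 0.42, 95% confidence interval 0.21 to 2.06), a level 2.20 times that of placebo, with all 3 progesterone arrays above all 3 placebo arrays. This probe set reached the limit for testing only through the progesterone arrays: its mean over the 9 other arrays was 5.97, below 6.31. Its difference is therefore given as a description, and its place among the probe sets tested supports nothing. With no filter on level its limma adjusted p was 0.572, which missed the threshold of 0.05, as did 0.409 (unadjusted 0.0205) with the filter. LLGL1 was 0.46 lower (interval -0.84 to -0.07), with all 3 arrays below placebo, and did not pass either (adjusted p 0.424, unadjusted 0.0233). CEP89 differed by -0.03 (interval -0.49 to 0.42, adjusted p 0.978), and this value changed sign when the second placebo array (0.04) or the first progesterone array (0.17) was left out.

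Among the 6 other tested probe sets the difference of progesterone from placebo ran from -0.27 for CEP89 MmugDNA.6682.1.S1_s_at to 0.77 for the Mmu probe set of TMEM106B, with limma adjusted p of 0.782 to 0.979. The latter value was 0.03 without the second progesterone array. In all, 0 of the 9 tested probe sets were called, beside 0.133% of all probe sets tested (35). Progesterone lay below all placebo arrays in 1 of the 9, beside 7.86%, and above all of them in 1, the TMEM106B probe set that was tested only because it was high there, beside 7.41%. With 1 probe set each, these counts do not set the 3 genes apart from the rest of the array. The brightest TMEM106B probe set differed by -0.21 (SE 0.25), opposite in sign to the other 2 of that gene.

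**Figure D4:**
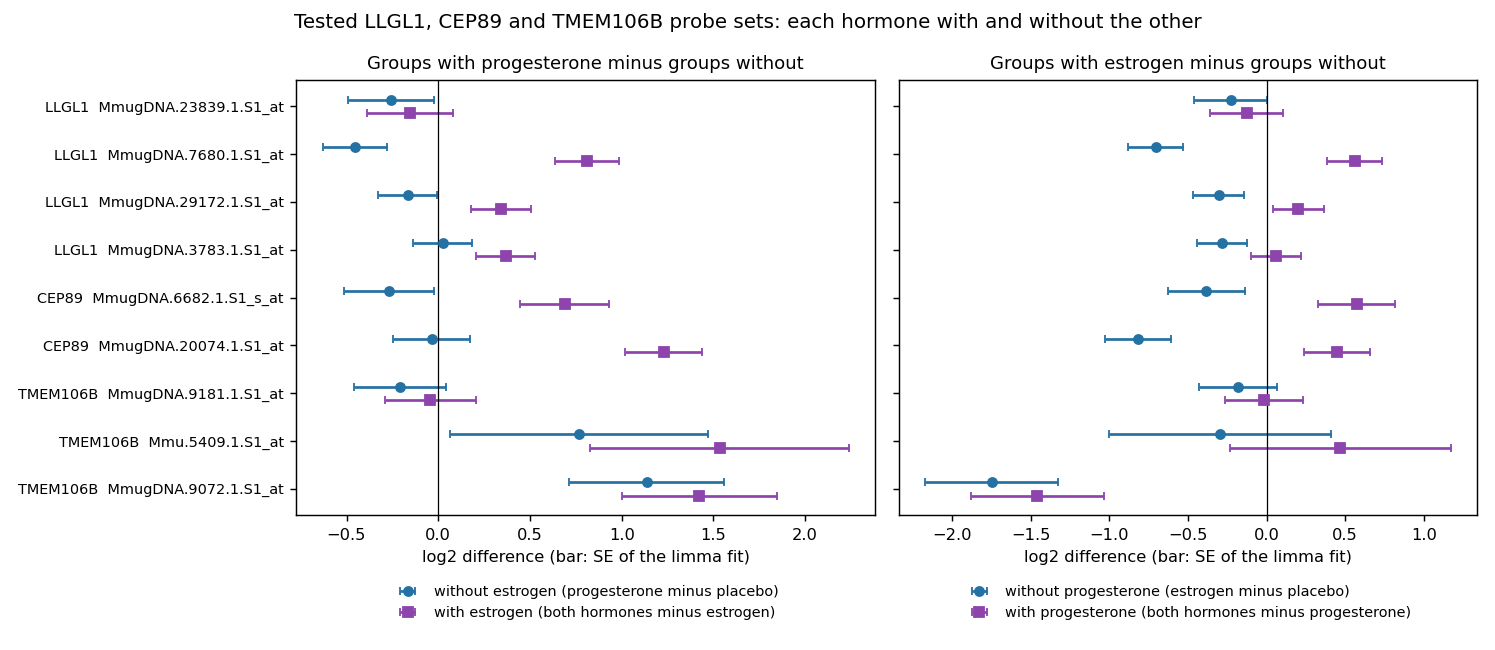
Log2 difference with the SE of the limma fit for the 9 tested probe sets; the left panel sets progesterone-treated groups against those without progesterone, the right panel estrogen-treated groups against those without estrogen, each in the absence (circles) and presence (squares) of the other hormone. The choosing LLGL1 probe set crosses from -0.46 to 0.81 in the left panel, whereas the choosing TMEM106B probe set has 1.14 and 1.42 there and -1.75 and -1.46 in the right panel.

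Some lists of cell-type markers differed between these groups, and others did not. Of 7 tested oligodendrocyte and myelin genes of 12 listed, 6 were lower under estrogen than under placebo (median -0.31, 0 called), among them MYRF (-0.49), MAL (-0.39) and UGT8 (-0.36), while MBP was at 0.01. Their summed intensity was 26990 to 29570 under placebo and 23480 to 26890 under estrogen. It was 26240 to 27610 under the combination and 25000 to 30390 under progesterone. The estrogen arrays thus lay below the placebo arrays, as in the choosing probe sets of LLGL1, CEP89 and TMEM106B, though here by a narrow margin. Unlike in those probe sets after quantile normalization, the estrogen arrays overlapped the combined arrays. Of 6 tested cerebellar genes of 10 listed, markers of neighbouring tissue, 5 were higher under estrogen than under placebo (median 0.51, 0 called), and the median for the combination against estrogen was -0.32. Their sums were 1790 to 2069 under placebo, 1706 to 3586 under estrogen, 1702 to 2797 under the combination and 2125 to 2317 under progesterone, with the highest in estrogen array 2. The 3 tested general neuron genes of 9 listed were all higher under estrogen than placebo (median 0.19) and lower under the combination than estrogen (median -0.12), again with 0 called. Under progesterone, 6 of 6 tested serotonin neuron genes of 12 listed had lower means than under placebo (median -0.46, 0 called), with sums of 2210 to 2763 against 2832 to 4119. The 5 tested ependymal genes of 10 listed, markers of ciliated cells, were also lower there, with sums of 697.6 to 793.2 against 830.8 to 978.2, and under estrogen their sums overlapped placebo (749.0 to 893.8). The sums of astrocyte, microglia and endothelium markers overlapped between all groups. Among single probe sets tested, estrogen lay below all placebo arrays in 3.98% and progesterone in 7.86%.

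The array's control transcripts did not move alike. For EF1A, the log2 signal at the 3′ end less that at the 5′ end was -0.04 to 0.07 under placebo, 0.12 to 0.74 under estrogen, -0.08 to 0.65 under the combination and -0.37 to -0.31 under progesterone. For actin it was 0.113 to 0.626 under placebo, 0.520 to 0.895 under estrogen, 0.480 to 0.629 under the combination and 0.658 to 1.231 under progesterone, so that progesterone lay above placebo where it lay below it for EF1A. For GAPDH it was 0.424 to 0.495, 0.481 to 0.813, 0.337 to 1.114 and 0.111 to 0.590 in the same order, with overlap throughout. The part of cell make-up or of RNA quality in the values of the 3 genes was not tested. Without the 3 arrays that stood apart on the first component, estrogen minus placebo was -0.75 for LLGL1, -0.75 for CEP89 and -1.95 for TMEM106B in the choosing probe sets, and the combination minus estrogen was 0.88, 1.14 and 1.37. Progesterone minus placebo was then -0.38, -0.04 and 1.34, with limma adjusted p of 0.559, 0.975 and 0.192.

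The medians of the partner lists lay near 0. For LLGL1, 13 of 32 listed genes of the Scribble, Par and Crumbs complexes and their close partners were tested. Under estrogen 10 had higher and 3 lower means than placebo (median 0.11, against -0.01 over all probe sets tested), opposite in sign to LLGL1, but the median was 0.01 without the 3 arrays that stood apart. Under the combination against estrogen 7 were higher and 6 lower (median 0.01, against -0.00, and -0.07, against -0.06, when arrays were aligned on their medians). None passed in either comparison (lowest adjusted p 0.9997 and 0.9999), nor did any for progesterone against placebo, with 6 higher and 7 lower (median -0.00, or 0.02 in the values as the authors scaled them, against -0.02, lowest adjusted p 0.399). For the combination against estrogen, the mitotic kinase AURKA stood at 0.70 (SE 0.28) and the apical Crumbs protein CRB3 at 0.28 (SE 0.35), while the Crumbs scaffold PALS1 stood at -0.19 (SE 0.16) and PRKCI, an atypical protein kinase C, at -0.43 (SE 0.40).

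For CEP89, 28 of 42 listed genes of the distal and subdistal appendages and the centriole were tested. Under estrogen 15 were higher and 13 lower than placebo (median 0.01, or -0.01 in the values as the authors scaled them), and under the combination 12 were higher and 16 lower than estrogen (median -0.05), with 0 called. Progesterone against placebo gave 14 and 14 (median 0.03, or -0.08 on median alignment, against -0.12 over all probe sets tested), again with 0 called. For the combination against estrogen, CEP68, which links the centrioles of a pair, stood at 0.36 (SE 0.22) and LRRC45, an appendage protein, at 0.29 (SE 0.20). CEP70 stood at -0.39 (SE 0.20) and IFT20, a carrier of cargo from the Golgi to the cilium, at -0.23 (SE 0.15). The distal appendage genes CEP164 and CEP83, neighbours of CEP89 on the centriole, had 0.23 (SE 0.17) and 0.11 (SE 0.29) for estrogen against placebo and -0.07 and -0.22 for the combination against estrogen. CEP89 itself had -0.82 and 1.23.

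For TMEM106B, 39 of 64 listed lysosomal genes were tested. Under estrogen 17 were higher and 22 lower than placebo (median -0.05), under the combination 23 were higher and 16 lower than estrogen (median 0.07), and under progesterone 16 were higher and 23 lower than placebo (median -0.07), with 0 called in each. Of the 3 lists this was the one whose medians had the sign of its gene in the comparisons used for the selection, but the first, -0.05, was 0.02 without the 3 arrays that stood apart and 0.01 on median alignment, and the second, 0.07, was -0.03 on median alignment. NPC1, which exports cholesterol from the lysosome, stood at -0.44 under estrogen against placebo and 0.50 under the combination against estrogen (SE 0.16). HEXA, a subunit of the hexosaminidase that degrades gangliosides, stood at -0.34 and 0.56 (SE 0.21). The protease CTSS stood at 0.08 and -0.40 (SE 0.22), and the neuronal LAMP family member LAMP5 at 0.46 and -0.35 (SE 0.22). Other listed genes had the signs of NPC1 too, and others the reverse. Both comparisons share the estrogen arrays, and these genes were named by the second. Opposite signs thus partly follow from the naming. None of these passed (limma adjusted p 0.9999 for the combination against estrogen, 0.9997 for estrogen against placebo).

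**Figure D5:**
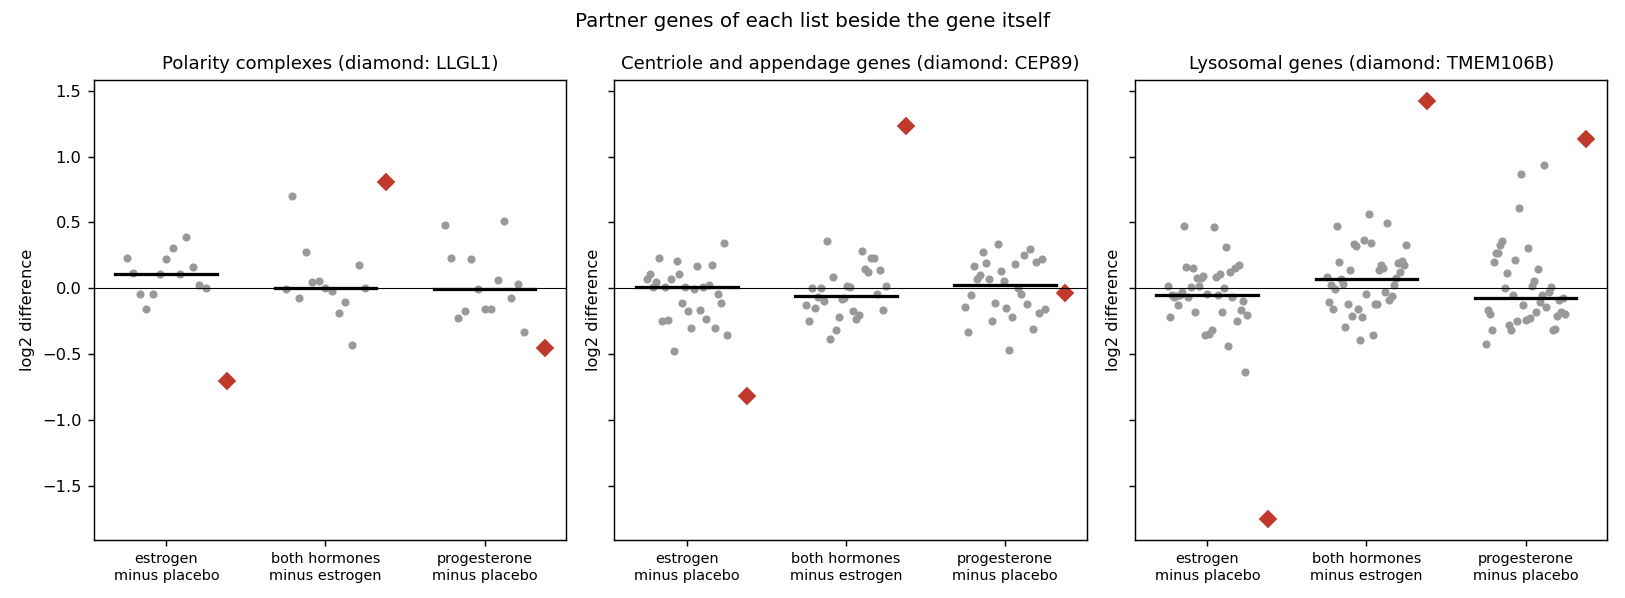
Log2 difference of each tested gene of the 3 partner lists (grey points, brightest probe set per gene) and of the choosing probe set of LLGL1, CEP89 or TMEM106B (diamond) in 3 comparisons; the bar is the list median, and horizontal scatter has no meaning. The list medians lie between -0.07 and 0.11, and 3 of the 9 keep their sign both on median alignment and in the values as the authors scaled them: polarity for estrogen minus placebo, centriole for both hormones minus estrogen, and lysosomal for progesterone minus placebo. Median alignment also moved the median over all probe sets tested, to -0.06 for both hormones minus estrogen and -0.12 for progesterone minus placebo.

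Likeness to the choosing probe sets was measured as the root mean square difference over the 12 arrays after each of 15011 named probe sets of other genes was centred on its own mean. Nearest to LLGL1 were LPA, an apolipoprotein gene, and TAPBP, a chaperone of antigen loading (both 0.21), then TSPAN10 and PPP1CA, a catalytic subunit of protein phosphatase 1 (both 0.23), and ZBTB4 (0.24), where the median over all was 0.45. Nearest to CEP89 were the Golgi SNARE protein STX5 (0.30), TCTN2, a protein of the base of the cilium (0.32), and FXYD3, JMJD7 and TSC2, the tuberous sclerosis gene product tuberin (each 0.33), where the median was 0.56. TCTN2 differed by -0.27 under estrogen against placebo, 0.75 for the combination against estrogen and 0.18 under progesterone. Nearest to TMEM106B were the transcription factor NFIX (0.60), SOS2, an activator of Ras (0.64), the ion channel TRPM3 (0.70), CCSER2 and AIF1L (both 0.71), where the median was 1.18. All 5 of the latter were higher under progesterone than under placebo, from 0.78 for SOS2 to 1.89 for TRPM3. The likeness was measured over all 12 arrays, the progesterone arrays among them. Differences shared with a choosing probe set, here or in TCTN2, therefore follow from the way the genes were picked. For estrogen against placebo the 5 ran from -0.60 for SOS2 to -0.05 for CCSER2, where TMEM106B had -1.75. No gene was among the nearest 5 of more than 1 of the 3 genes.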

How the data were processed

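The authors deposited 1 linear intensity per probe set and array, scaled to a common level on each array: in the deposited file the mean without the lowest and highest 2% was 200.0 on all 12. The software and genome build behind them are not given in the sources used here, and no sequence or position was used. After removal of 99 control probe sets, values were floored at their 5th percentile, log2 transformed and quantile normalized. Probe sets whose mean reached the median mean (log2 6.31, intensity 79.5) were tested with limma 3.58.1 in R 4.3.3, with 1 mean per group, no block, two-sided tests, Benjamini-Hochberg adjustment over 26383 probe sets and a threshold of 0.05. The fit was tested on simulated data. SEs are those of the fit. The groups share replicate numbers: deviations of same-numbered arrays correlated at 0.103 to 0.507 between the combined group and placebo or estrogen, above the limit of 0.1 in all 6 pairs, and not in all pairs of other groups. The highest, 0.507, joined the first arrays of estrogen and the combination, which stood apart on the first component. The labels name no pairing. The main fit paired no groups, so its SEs take no account of these correlations, and the replicate block tried as a setting covered all 4 groups.

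Names came from the probe table, updated through its gene identifiers: 24956 probe sets had 1 symbol, 361 several and 27449 none, and the last 2 kinds were not named. The choosing probe set of a gene is its tested probe set with the lowest unadjusted p for estrogen against placebo. From each partner list, members called in a comparison were named, and otherwise the 2 higher and 2 lower members of lowest p for the combination against estrogen; CEP164 and CEP83, and the oligodendrocyte genes, were named outside this rule after their values were seen. A list gene is represented by its brightest tested probe set. The 3 genes, the lists and the tests were chosen with earlier results of these data known. The smallest p of an exact permutation test on 3 against 3 animals is 0.1, so single genes rest on limma. Figures were drawn with matplotlib 3.10.9.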

Additional observations from a re-analysis of the deposited data

How the results depend on the processing

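The settings tried were median alignment, the values as the authors scaled them (added after seeing the data), a floor at the 25th percentile, a filter at the 75th, no filter, only the arrays of the groups compared, the replicate block, each array left out in turn, and the first arrays of 3 groups left out together. No probe set of LLGL1, CEP89 or TMEM106B was called in any of them, for progesterone against placebo, estrogen against placebo or the combination against estrogen. Of 180 recomputed values of the choosing probe sets, 178 kept their direction and their side of the threshold or moved by less than the spread between replicates. That count was nearly fixed in advance and shows little. Leaving out 1 array of a group moves its mean by little against that spread, and the adjusted p lay far above the threshold. The exceptions were both of CEP89 for progesterone minus placebo, which ran from -0.25 to 0.17 over single arrays left out, at 0.04 without the second placebo array and 0.17 without the first progesterone array. Estrogen minus placebo ran from -0.83 to -0.62 for LLGL1, -0.88 to -0.74 for CEP89 and -2.12 to -1.45 for TMEM106B. Progesterone minus placebo ran from -0.58 to -0.37 for LLGL1 (adjusted p 0.309 to 0.744) and from 0.89 to 1.41 for TMEM106B (0.192 to 0.588). The TMEM106B probe set dropped out of the test, and so has no adjusted p, without the first progesterone array (1.12), without the second (0.89) and with the filter at the 75th percentile.

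For LLGL1 MmugDNA.3783.1.S1_at, progesterone minus placebo was -0.047 on median alignment, which moved the median of all probe sets in that comparison from -0.02 to -0.12, and ran from -0.080 (without the third placebo array) to 0.080 over single arrays left out. For TMEM106B MmugDNA.9181.1.S1_at it ran from -0.50 to 0.040, the latter without the second progesterone array. Probe sets called for progesterone against placebo (35) numbered 20 with the replicate block, 0 with only the arrays of the groups compared (fewer arrays to estimate the spread), and 5 (without the second placebo array) to 55 (without the third) over single arrays left out. Those called for estrogen against placebo numbered 1 without a filter. Over single arrays left out, 0 to 1 were called for estrogen against placebo and 0 to 1 for the combination against estrogen, with 1 in each without the second estrogen array. The replicate block changed no other call, and the cause of these changes was not tested. Signal over background limits the 3 dim CEP89 probe sets and TMEM106B MmugDNA.9072.1.S1_at.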
